A study of Mus musculus with 6 samples.

Results

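The Zfp36 and Btg/Tob genes encode proteins that mark mRNAs for removal of their poly(A) tail. They were sought as Zfp36, Zfp36l1, Zfp36l2, Btg1, Btg2, Btg3, Tob1 and Tob2 among the probe sets that the platform annotation gives to exactly 1 gene, and the brightest probe set of each gene over the 6 arrays was kept. Of the 8 genes, 7 were found, each with 1 such probe set, out of 19938 genes in all. For Btg3 the annotation lists 2 probe sets, both of which it also gives to the gene Gm7334, so Btg3 has no value here. The measured genes are spread over the genome, on chromosome 7 (Zfp36, probe set 10561453), 12 (Zfp36l1, 10401238), 17 (Zfp36l2, 10453272), 10 (Btg1, 10365971), 1 (Btg2, 10357875), 11 (Tob1, 10380381) and 15 (Tob2, 10430770) of the mouse assembly GRCm38.p6.

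The arrays came from satellite cells, the resident stem cells of skeletal muscle, 3 of them from cultured and 3 from fresh cells. Fresh cells were sorted from hind-limb, abdominal and triceps muscle of C57BL/6J mice aged 2 months. The sort kept cells with beta-1 integrin and CXCR4 and removed those with CD45, CD31, CD11b, Ter119 or Sca1. Cultured cells were such sorted cells grown for 5 days on collagen and laminin in F10 medium with 20% donor horse serum, 1% penicillin-streptomycin and 1% glutamine supplement, with basic fibroblast growth factor added each day at 5 ng/ml. The labels name no mutant allele or transgene in either group. The labels mention 3 mice but do not say which mouse gave which array, or whether a cultured and a fresh array share one, so p-values measure the spread between these arrays, which may be technical. Cultured replicates 2 and 3 stood apart in bright genes, and fresh replicate 1 in tendon cell markers, with values given below beside the results they touch.

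As background, Zfp36 (tristetraprolin) and its paralogues Zfp36l1 and Zfp36l2 carry a pair of CCCH zinc fingers that bind AU-rich elements of short-lived mRNAs, such as those of cytokines and early response factors, and recruit the CCR4-NOT deadenylase complex. Btg and Tob proteins bind the Cnot7 and Cnot8 nucleases of the same complex, and Tob proteins also bind the poly(A)-binding protein. Btg and Tob proteins were first known for restraining proliferation. In mouse satellite cells, Zfp36 has been described as promoting decay of the mRNA of the myogenic factor Myod1.

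Promoter sequences of the 3 genes with the largest differences are shown because each holds 1 match to a motif bound by stimulus-responsive transcription factors. They are the 250 bases before the gene start given by RefSeq in GRCm38.p6, written 5′ to 3′ on the gene's strand. Capitals mark the match, which is a CArG box in Zfp36, an AP-1 motif in Zfp36l1 and a cyclic AMP response element in Btg2.
Zfp36, chr7:28379229-28379478, minus strand: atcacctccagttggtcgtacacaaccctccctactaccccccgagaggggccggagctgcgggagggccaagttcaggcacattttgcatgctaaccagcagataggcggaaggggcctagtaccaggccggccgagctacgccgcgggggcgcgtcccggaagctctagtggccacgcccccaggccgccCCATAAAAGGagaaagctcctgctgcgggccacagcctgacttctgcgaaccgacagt
Zfp36l1, chr12:80113014-80113263, minus strand: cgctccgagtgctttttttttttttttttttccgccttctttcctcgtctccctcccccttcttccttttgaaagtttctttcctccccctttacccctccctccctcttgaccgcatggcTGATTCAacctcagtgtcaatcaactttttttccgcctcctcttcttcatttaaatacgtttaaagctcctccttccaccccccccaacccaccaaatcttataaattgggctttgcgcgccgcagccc
Btg2, chr1:134079156-134079405, minus strand: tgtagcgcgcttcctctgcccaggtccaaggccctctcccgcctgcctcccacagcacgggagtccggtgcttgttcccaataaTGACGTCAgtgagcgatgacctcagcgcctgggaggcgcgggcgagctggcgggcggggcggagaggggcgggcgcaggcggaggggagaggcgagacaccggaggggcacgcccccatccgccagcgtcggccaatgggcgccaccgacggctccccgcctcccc

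The CArG box, bound by serum response factor, lay 58 to 49 bases before the start of Zfp36 and was present in 1.47% of 32851 promoter windows of this length. The AP-1 motif TGANTCA, bound by Fos and Jun proteins, lay 129 to 123 bases before the start of Zfp36l1 and was present in 6.75% of windows. The cyclic AMP response element TGACGTCA lay 166 to 159 bases before the start of Btg2 and was present in 1.55% of windows. Both strands were searched, the matches do not overlap, and a match is only a run of letters. The motifs were chosen with earlier results of these data known, and the sequences are shown because they match. Each share is for 1 motif alone, whereas a match to any motif searched counted, so the matches test no cause. Of the 8 genes, 7 were in the promoter table. Btg1, Tob1 and Tob2 held none of these motifs, nor the NF-kB motif that 7.25% of windows held, in the 250 bases searched. Btg3 had 2 windows, of which 1 held the NF-kB motif. Zfp36l2 was the gene outside the table.

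All 7 measured genes had lower values on every cultured array than on any fresh array. The largest differences were in Zfp36 and Btg2, at 38.5-fold and 35.5-fold lower, followed by Zfp36l1 at 12.5-fold, Btg1 at 4.89-fold and Tob1 at 3.01-fold lower. These 5 of 7 genes fell past an adjusted p of 0.05 in limma fitted to all genes, and none rose, where 3.37% of the 19938 genes fell and 0.953% rose. The genes were chosen with earlier results of these data known, so these shares are no test of the family. Zfp36l2 and Tob2 did not pass. Values of cultured and fresh arrays failed to overlap for 23.2% of all genes. The median log2 fold change of the 7 genes was -2.29, beside 0.04 for all genes tested. The RNA comes from whole cell samples, so fewer cells of a type and less RNA per cell cannot be told apart.

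**Figure D1:**
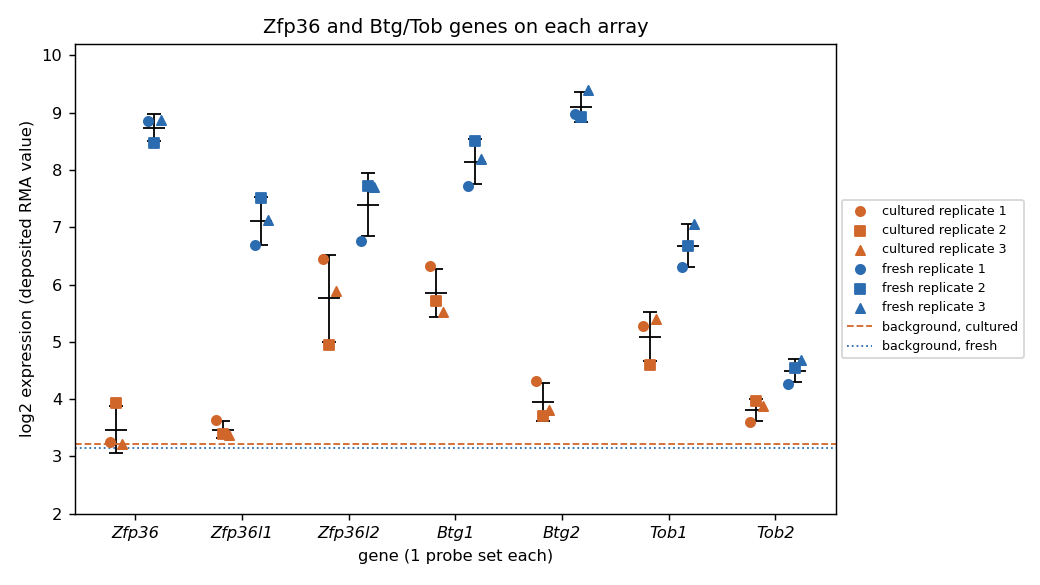
Log2 expression (vertical axis, deposited RMA values) of 7 Zfp36 and Btg/Tob genes, with cultured arrays left of fresh arrays for each gene. Points are single arrays, bars the mean and SD of 3, and the horizontal lines are the background levels, 3.23 for cultured and 3.16 for fresh cells. Every orange point lies below every blue point of the same gene, and Zfp36 and Zfp36l1 end near the background.

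Zfp36 is the founding member of its family and an early response gene itself. It had log2 values of 3.25, 3.94 and 3.22 on cultured replicates 1, 2 and 3, against 8.86, 8.46 and 8.88 on fresh replicates 1, 2 and 3. The cultured arrays spanned 0.72 and the fresh arrays 0.41, far less than the distance between the groups. Its log2 fold change was -5.27 ± 0.23 (SE), with an adjusted p of 2.01e-05 (limma), and the fold change was the 11th lowest of the 19938 genes. A background level was set for each array as the value that 95% of 1194 receptor genes of the nose (olfactory and vomeronasal) did not exceed, and was 3.23, 3.40 and 3.28 on cultured replicates 1, 2 and 3. Zfp36 stood just above it on replicate 1, above it on replicate 2 and below it on replicate 3. RMA compresses differences near this level, so the fold change can be understated.

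Zfp36l1, which in mice is needed for embryonic development and lymphocyte quiescence, had log2 values of 3.64, 3.40 and 3.38 on the cultured arrays, against 6.69, 7.51 and 7.13 on the fresh arrays. The cultured arrays lay within 0.26 of each other, near the background, and above it on replicates 1 and 3 only, while the fresh arrays spanned 0.82. The log2 fold change was -3.64 ± 0.22 (SE), with an adjusted p of 8.24e-05 (limma).

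Zfp36l2, which in mice acts in female fertility and blood stem cells, was the paralogue with the smallest difference. Its log2 values were 6.45, 4.95 and 5.88 on the cultured arrays, against 6.77, 7.72 and 7.70 on the fresh arrays. Cultured replicate 1 and fresh replicate 1 differed by little, and the cultured arrays spanned 1.51. Zfp36l2 had a log2 fold change of -1.64 ± 0.41 (SE), with a 95% interval of -2.58 to -0.69 and an adjusted p of 0.0733 (limma), which does not pass. It passed without cultured replicate 1, at -1.98 with an adjusted p of 0.00969, after a further quantile normalization, at -1.25 with an adjusted p of 0.0368, with cyclic loess at -1.37 and with array weights at -1.62. The call therefore depends on the scaling and on 1 array.

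Differences between the 3 Zfp36 paralogues, taken within each array, separated cultured from fresh arrays. They were compared by an exact permutation test, which cannot go below 0.1 with 3 arrays against 3. Measured within each array, the log2 difference Zfp36 minus Zfp36l1 averaged -0.0021 ± 0.48 on cultured and 1.62 ± 0.62 on fresh arrays (SD, n = 3 each). Cultured minus fresh, this difference was -1.62 ± 0.45 (SE). It was -3.63 ± 0.77 (SE) for Zfp36 minus Zfp36l2 and -2.005 ± 0.41 (SE) for Zfp36l1 minus Zfp36l2. In each pair the within-array differences of cultured and fresh arrays did not overlap. The exact two-sided permutation p was 0.1 for each, the smallest possible, and 0.1 after adjustment over the 5 pairs compared. For Zfp36 minus Zfp36l1 the exact permutation p was 0.2 without cultured replicate 1 or 3, where 0.1 is still the smallest possible. A within-array difference does not rank the levels of different probe sets. Zfp36 and Zfp36l1 both averaged 3.47 on the cultured arrays, near the background. Their difference there may reflect that floor, and the size of the change in each pair is limited by it.

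Btg2, an antiproliferative gene and a target of p53, was the Btg gene with the larger difference. It had log2 values of 4.32, 3.71 and 3.82 on the cultured arrays, against 8.97, 8.93 and 9.40 on the fresh arrays. All 3 cultured values lay above the background of their array. The log2 fold change was -5.15 ± 0.21 (SE), the 14th lowest of all genes, with an adjusted p of 1.55e-05 (limma).

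Btg1, its closest paralogue, which together with Btg2 has been described as keeping mouse T cells quiescent, had log2 values of 6.32, 5.71 and 5.53 on the cultured arrays, against 7.72, 8.51 and 8.19 on the fresh arrays. The cultured cells kept a signal well above background. Its log2 fold change was -2.29 ± 0.27 (SE), with an adjusted p of 0.00285 (limma). Btg2 minus Btg1 within arrays averaged -1.90 ± 0.17 on cultured and 0.96 ± 0.47 on fresh arrays (SD, n = 3 each). Cultured minus fresh, the difference was -2.86 ± 0.29 (SE), with an exact permutation p of 0.1, the smallest possible here.

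Tob1, an inhibitor of proliferation and, in mouse bone cells, of bone morphogenetic protein signalling, had log2 values of 5.28, 4.60 and 5.40 on the cultured arrays, against 6.31, 6.68 and 7.06 on the fresh arrays. The log2 fold change of -1.59 ± 0.26 (SE) had an adjusted p of 0.0148 (limma). Tob1 lost this call without fresh replicate 2, at an adjusted p of 0.0698, and without fresh replicate 3, at an adjusted p of 0.0687, which left 4 of the 7 genes past the test.

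Tob2, the other Tob gene, whose protein also binds the deadenylase complex, had log2 values of 3.60, 3.97 and 3.87 on the cultured arrays, against 4.27, 4.55 and 4.68 on the fresh arrays. The groups did not overlap, but cultured replicate 2 and fresh replicate 1 were close. Tob2 had a log2 fold change of -0.69 ± 0.17 (SE), with a 95% interval of -1.08 to -0.30 and an adjusted p of 0.0688 (limma), which does not pass. It passed with cyclic loess, at -0.75, and with array weights, at -0.68. Tob1 minus Tob2 within arrays averaged 1.28 ± 0.57 on cultured and 2.18 ± 0.18 on fresh arrays (SD, n = 3 each), a change of -0.90 ± 0.34 (SE), and the exact permutation p was again 0.1. This change was -0.97, -0.93 and -0.80 without fresh replicates 1, 2 and 3. The exact permutation p was then 0.2 each time, where 0.1 is the smallest possible.

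In order of fold change, Zfp36 and Btg2 were neighbours whose 95% intervals, -5.80 to -4.74 and -5.64 to -4.66, overlapped. The interval of Zfp36l1, -4.14 to -3.14, overlapped neither that of Btg2 nor that of Btg1, which was -2.91 to -1.67. Zfp36l2 and Tob1 lay side by side at -1.64 and -1.59, and their intervals overlapped each other, that of Btg1 and that of Tob2. The 4 genes Zfp36, Btg2, Zfp36l1 and Btg1 passed the test under all 14 other settings tried, Tob1 under 12, Zfp36l2 under 4 and Tob2 under 2. No setting reversed the direction of any of the 7 genes, but most of them could not have done so. Where cultured and fresh values do not overlap, neither a left-out array nor array weights can reverse a sign. The block, the other prior, the filter and the probe set rule left each fold change as it was.

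**Figure D2:**
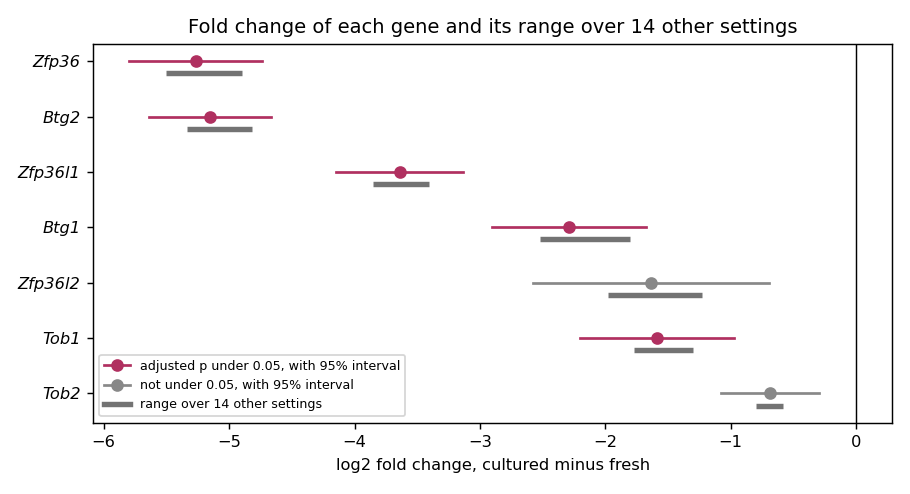
Log2 fold change, cultured minus fresh (horizontal axis), of 7 genes ordered from the lowest, with the 95% interval of the limma fit as a thin line and the range over 14 other settings as a grey bar. Zfp36 and Btg2 lie near -5, Tob2 is nearest to 0 at -0.69, and no interval or bar crosses 0.

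Cultured replicates 2 and 3 were dimmer than replicate 1 at the bright end of the scale. Over the 49 genes with a mean above 11, the median difference from the fresh mean was -0.09, -3.33 and -2.87 on cultured replicates 1, 2 and 3. The means of the 7 genes over the 6 arrays all lay between 4 and 7.5. Over the 5345 genes with such a mean, the same median was 0.16, -0.21 and -0.02. The means of the 7 genes include their low cultured values. On the fresh arrays alone, Btg2, Zfp36 and Btg1 averaged 9.10, 8.73 and 8.14, above this range. The median therefore does not show how far genes of that brightness were dimmed on cultured replicates 2 and 3. On cultured replicate 1, the array without the dimming, the log2 difference from the fresh mean was -5.48 for Zfp36, -4.78 for Btg2, -3.48 for Zfp36l1 and -1.82 for Btg1. It was -0.94 for Zfp36l2, -1.40 for Tob1 and -0.90 for Tob2 on that array. Among the cultured arrays, Btg2, Zfp36l2 and Tob1 were lowest on replicate 2, whereas Zfp36 and Tob2 were highest on it. Btg2, Btg1, Zfp36l1 and Zfp36l2 were highest on cultured replicate 1. Pearson correlations over all probe sets were 0.938 between cultured replicates 1 and 2, 0.962 between 1 and 3 and 0.940 between 2 and 3. Cultured replicate 1 and fresh replicate 2 were at 0.942, and which cultured array is the unusual one was not tested.

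**Figure D3:**
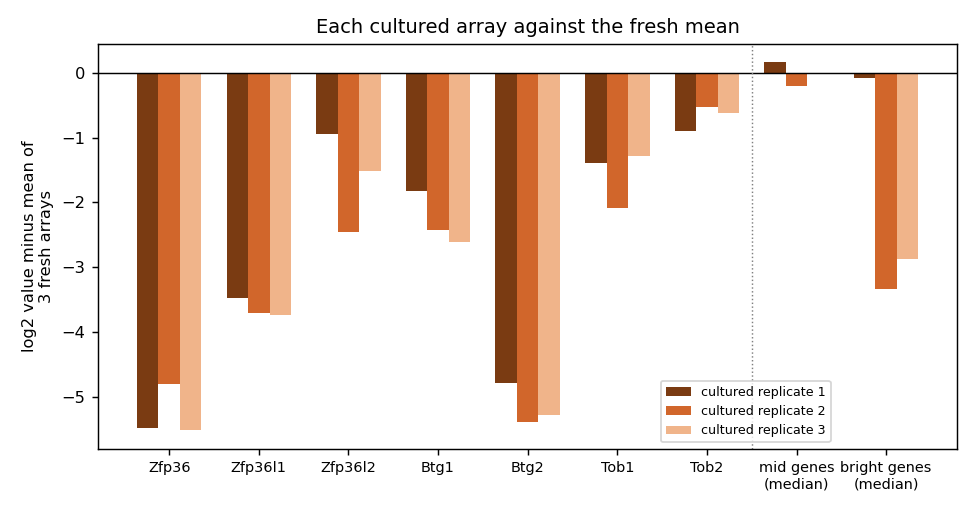
Log2 value of each cultured array minus the mean of the 3 fresh arrays (vertical axis) for 7 genes, with medians over 5345 genes of mean 4 to 7.5 ("mid genes") and 49 genes of mean above 11 ("bright genes") at the right. Zfp36 and Btg2 are low on all 3 cultured arrays, from -5.52 to -4.80 and from -5.39 to -4.78, with Btg2 least low on replicate 1. The bright genes fall on replicates 2 and 3 and not on replicate 1.

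Most genes of the decay machinery that these proteins recruit did not pass the test in either direction. Of 15 genes of the CCR4-NOT complex and other deadenylases, 1 rose, none fell and 14 did not pass, with a median log2 fold change of -0.06. The one that rose was Cnot9, a subunit of the complex, at log2 values of 4.15, 4.25 and 4.12 on the cultured arrays, against 3.24, 3.25 and 3.54 on the fresh arrays. Its log2 fold change of 0.83 ± 0.14 (SE) had an adjusted p of 0.0169 (limma), and it lost its call without cultured replicate 3, fresh replicate 1 or fresh replicate 2. The Btg and Tob binding nucleases Cnot7 and Cnot8 were at -0.40 and -0.06 with adjusted p of 0.402 and 0.889. Cnot4 and Noct fell without cultured replicate 1, at -1.46 and -1.22, and with cyclic loess, at -1.24 and -0.92. Cnot4 also fell after a further quantile normalization, at -1.19 (adjusted p = 0.0202).

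Of 19 decapping and exonuclease genes, 1 rose and none fell, with a median of 0.02, although Ddx6 fell without fresh replicate 1, at -1.33. The gene that rose was Edc3, an enhancer of decapping, at 0.97 ± 0.17 (SE) with an adjusted p of 0.0190 (limma), lost without cultured replicate 3, fresh replicate 2 or fresh replicate 3. Of 13 measured genes for other proteins that bind AU-rich or stem-loop elements, 1 fell and none rose, with a median of -0.20. This was Arid5a, described in mice as stabilising cytokine mRNAs, which had log2 values of 4.56, 4.79 and 4.68 on the cultured arrays, against 5.86, 5.84 and 5.85 on the fresh arrays. Its log2 fold change was -1.17 ± 0.13 (SE), with an adjusted p of 0.00226 (limma). The HuR gene Elavl1, which stabilises such mRNAs, had a log2 fold change of 0.37 (adjusted p = 0.554) and the AUF1 gene Hnrnpd one of -0.06 (adjusted p = 0.956), both named here after their values were seen. Without cultured replicate 1, Pabpc1 and Tial1 fell as well, at -0.93 and -1.05, whereas Pabpc1 rose with cyclic loess, at 0.88. Of 9 measured partners of Btg and Tob proteins, 1 fell, the signal transducer Smad4 at -0.99 with an adjusted p of 0.00718, none rose, and the median was -0.31. The poly(A)-binding protein gene Pabpc1 belongs to both lists.

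The p38 and MK2 kinases phosphorylate Zfp36 protein, which stabilises it and holds back its decay activity, and the phosphatase Dusp1 switches p38 off. Of 12 genes of this pathway, 2 fell and none rose, with a median of -0.31. Dusp1 had log2 values of 4.38, 4.47 and 3.76 on the cultured arrays, against 8.64, 8.29 and 8.64 on the fresh arrays, a log2 fold change of -4.32 ± 0.22 (SE) with an adjusted p of 3.31e-05 (limma). The other was Ppp2ca, the catalytic subunit of a phosphatase that acts on Zfp36 protein, at -1.26 with an adjusted p of 0.0413. Ppp2ca kept its call in 1 of the 6 fits that left out an array, the one without cultured replicate 1, in which Ppp2r1a also fell, at -0.82. The kinase genes Mapk14 and Mapkapk2 had log2 fold changes of -0.54 (adjusted p = 0.0688) and -0.16 (adjusted p = 0.829), named after their values were seen. Mapk14 fell after a further quantile normalization, at -0.57 (adjusted p = 0.0316), and with cyclic loess, at -0.61 (adjusted p = 0.0212).

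Of 19 measured mRNAs that have been reported as Zfp36 targets, 9 fell and none rose, with a median log2 fold change of -0.76 beside 0.04 for all genes. Among those that fell, the log2 fold change was -6.03 for Fos, which the series title names, -5.93 for the chemokine Cxcl1, -4.32 for Dusp1 and -4.16 for the early response gene Ier3. Fos had log2 values of 3.91, 4.40 and 4.30 on the cultured arrays, against 10.03, 10.26 and 10.40 on the fresh arrays. Without cultured replicate 3, fresh replicate 2 or fresh replicate 3, 7 of the 19 fell. The cyclin gene Ccnd1, at 1.23 (adjusted p = 0.0577), rose after quantile normalization, at 1.58 (adjusted p = 0.000706), with cyclic loess, at 1.40 (adjusted p = 0.00166), and without cultured replicate 1 or 2, at 0.98 and 1.53. Tnf and Myod1, named after their values were seen, did not pass, at -0.27 and -0.41 with adjusted p of 0.526 and 0.532. Tnf lay within background in both groups. Of the 19 mRNAs, 9 lay within background in cultured and 5 in fresh cells. The list shares genes with others here: Fos, Dusp1 and Ier3 with the early response and heat shock genes below, and Dusp1 with the p38 pathway. Plk2 is also among the p53 targets and Ccnd1 among the proliferation genes, so these counts are not separate. The list of targets, like the other gene lists, was chosen with earlier results of these data known. Steady levels on these arrays do not measure mRNA stability.

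Of 17 measured p53 targets other than Btg2, 3 rose and 3 fell, with a median of -0.10. In log2 fold change the values were -2.98 for the death receptor gene Fas, -2.13 for the growth arrest gene Gadd45a and -1.94 for the kinase gene Plk2, and 2.80 for Ccng1, a cyclin family gene. Ccng1 and Plk2 lost their calls without cultured replicate 3 or any 1 of the fresh arrays. The count of higher genes was 0 without cultured replicate 3 and 1 without any 1 of the fresh arrays.

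**Figure D4:**
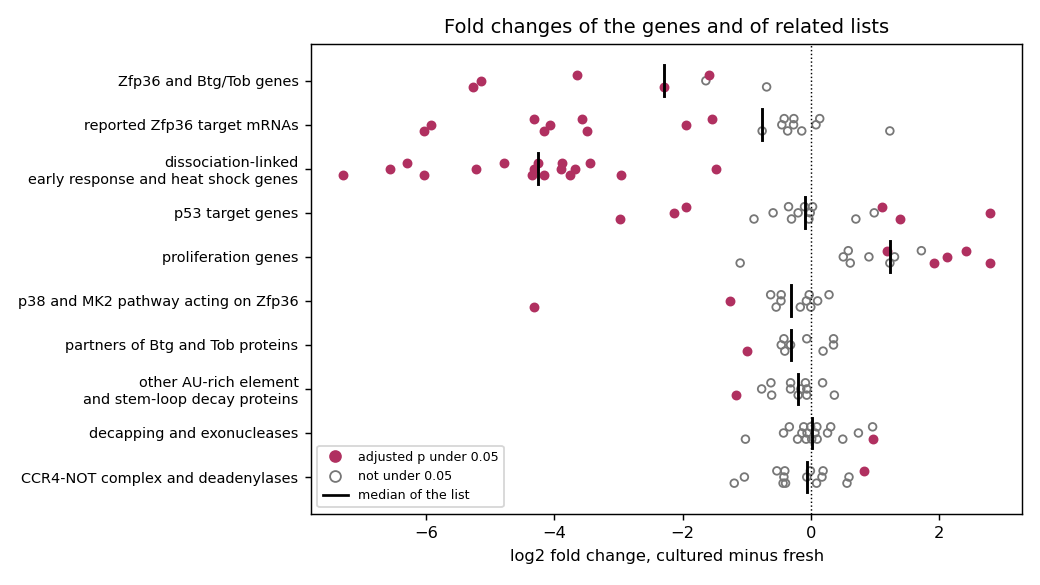
Log2 fold changes, cultured minus fresh (horizontal axis), of 7 Zfp36 and Btg/Tob genes and of 9 related gene lists, 1 point per gene, filled where the adjusted p was under 0.05, with the median of each list as a vertical bar. The Zfp36 and Btg/Tob genes have a median of -2.29 and the early response and heat shock genes of -4.26, while the deadenylase and decapping lists centre near 0.

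Zfp36 and Btg2 are among the genes known to be switched on by tissue dissociation. Of 17 measured early response and heat shock genes of that kind, all 17 fell, with a median log2 fold change of -4.26. At least 16 fell after a further quantile normalization, with cyclic loess and when any 1 array was left out. Fold changes on the log2 scale were -7.29 for Hspa1a, -6.57 for Dnajb1 and -6.30 for Hspb1, which encode chaperones, and -6.03 for Fos. Hsp90aa1 kept its call in 1 of the 6 fits that left out an array. The mean log2 level of this list was 4.96, 4.69 and 4.79 on the cultured arrays, against 9.11, 9.44 and 9.36 on the fresh arrays. The list was chosen with earlier results of these data known, and its part in the differences of Zfp36 and Btg2 was not tested.

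For each gene past the test, the 3 genes with the most similar profile over the 6 arrays were found by the root mean square distance between log2 profiles, each centred on its own mean. Nearest to Zfp36 were the complement inhibitor Serping1 at 0.25, the matrix protein gene Dpt at 0.31 and the chemokine Ccl19 at 0.33. Dpt, at 0.14, and Serping1, at 0.23, were also nearest to Btg2, followed by the metallothionein Mt1 at 0.24. The natriuretic peptide gene Nppc, at 0.17, and the chaperone Dnaja4 and the AP-1 subunit Jun, at 0.20 each, were nearest to Zfp36l1. Pcf11, Ccl11 and Uck2 were nearest to Btg1, at 0.17 to 0.18, and Zim1, Cnn3 and Rab11b to Tob1, at 0.11 to 0.15. With 2 groups of 3 arrays, this distance depends on the size of the group difference.

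Markers of other cells were read beside these results. The satellite cell transcription factor Pax7 had log2 values of 5.30, 5.01 and 5.11 on the cultured arrays, against 6.22, 6.66 and 6.52 on the fresh arrays, above background in both groups. Of 10 satellite cell markers 6 fell and none rose, led by Chodl (-5.90), Vcam1 (-2.69), Cxcr4 (-2.47) and Calcr (-2.07), and Vcam1 and Calcr lost their calls without cultured replicate 3, fresh replicate 2 or fresh replicate 3. The sort markers Ptprc (CD45), Pecam1 (CD31) and Itgam (CD11b) lay within background in both groups, at 1.95 to 2.76 over all 6 arrays. Of 7 measured fibro-adipogenic cell markers 4 fell, none rose and 3 did not pass. The mean log2 level of the 7 was 3.70, 3.60 and 3.73 on the cultured arrays, against 5.81, 5.64 and 5.30 on the fresh arrays. Dpt had a log2 fold change of -5.02, beside -4.52 for Dcn, -2.25 for Gsn and -1.08 for Col3a1, the last without a call when cultured replicate 3, fresh replicate 1 or fresh replicate 2 was left out. Pdgfra, the defining receptor of these cells, had a log2 fold change of 0.27 (adjusted p = 0.417), and Ly6a (Sca1) had no single-gene probe set. Lum and Col1a1, named after their values were seen, did not pass either, at -0.62 (adjusted p = 0.0685) and -0.13 (adjusted p = 0.744). Dcn was 8.53, 7.78 and 5.86 on fresh replicates 1, 2 and 3, and Dpt was 7.39, 7.24 and 7.68. Gsn was 6.69, 7.08 and 6.70 and Col3a1 was 6.10, 6.15 and 5.89 on the same arrays. Zfp36 and Btg2 spanned 0.41 and 0.47 over these arrays. The part of these cells in the differences was not tested.

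Of the remaining marker lists, endothelial cells had 1 of 7 lower (Tek, -0.76), muscle fibres 1 of 6 lower (Ckm, -0.80), and mast cells and basophils 1 of 8 higher (Mcpt8, 3.09). Tek and Ckm lost their calls without cultured replicate 2 or 3 or fresh replicate 2 or 3. None passed among 8 leukocyte, 6 tendon, 6 pericyte and smooth muscle, 3 measured Schwann cell and 1 measured erythroid markers. The largest absolute log2 fold changes in these lists were those of Fmod (-0.94) and Scx (0.86) for tendon, Notch3 (-0.77) and Kcnj8 (0.44) for pericytes, and Cd68 (-0.60) and Cd14 (-0.34) for leukocytes. Fresh replicate 1 stood apart in 3 of the 6 tendon markers. Fmod had log2 values of 3.23, 2.99 and 2.96 on the cultured arrays, against 6.08, 3.35 and 2.57 on the fresh arrays. Tnmd was at 4.86, 2.57 and 2.93 and Thbs4 at 6.11, 3.89 and 2.98 on fresh replicates 1, 2 and 3. Zfp36l1, Zfp36l2, Btg1, Tob1 and Tob2 were lowest among the fresh arrays on that replicate, and Zfp36 and Btg2 were not. Without it the same 5 of 7 genes passed, with log2 fold changes of -5.20 for Zfp36, -3.85 for Zfp36l1, -2.50 for Btg1, -5.21 for Btg2 and -1.77 for Tob1. Zfp36l2 was then at -1.95 (adjusted p = 0.0659) and Tob2 at -0.80 (adjusted p = 0.0706). The part of tendon cells in the differences was not tested. Sox10 was at -0.22 and Cdh19 at 0.13 for Schwann cells, and Alas2 at -0.21 for erythroid cells. The family members outside the set, Btg4 and Zfp36l3, lay within background in both groups.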

How the data were processed

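Per the labels' protocols, RNA extracted with Trizol was biotin-labelled for Affymetrix arrays. The authors deposited log2 values for 35556 probe sets on each of the 6 arrays, for which the submitters' processing notes name RMA and oligo, with no version. The labels name no genome build for these values, and the assembly given for genes and promoters is that of the RefSeq tables. RMA subtracts background, normalizes quantiles and summarises probes, and it compresses differences near background. Array medians lay between 3.10 and 3.15. Arrays carry no read depth, and their number limits the precision.

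Gene names came from the platform annotation, with symbols updated by NCBI gene ID to GRCm38.p6: 21789 had 1 gene, 1621 several and 12146 none listed. The probe set with the highest mean was kept, leaving 19938 genes. Cultured arrays were compared with fresh arrays by limma 3.58.1 in R 4.3.3 (lmFit, eBayes, group as the only term), with Benjamini-Hochberg adjustment over all genes. The code was tested on simulated data. Same-numbered arrays did not deviate together (correlations of -0.09, -0.14 and 0.03), so no block was used. Pairs of paralogues were compared by exact permutation. Pairs with Btg3 could not be run.

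The members, lists and motifs were chosen with earlier results of these data known. The rule names the members, Fos, Btg4, the 3 nearest genes of each member past the test and, in each list, up to 4 genes past the test with the largest absolute fold changes, or the 2 largest where none passed. Alternatives were a replicate block, rescaling, other priors, array weights, a filter on dim genes, another probe set rule and leaving out each array. Counts of the lists without single arrays and after rescaling were added after seeing the data.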

Additional observations from a re-analysis of the deposited data

How the results depend on the processing

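The count of Zfp36 and Btg/Tob genes past the test, 5 of 7, was 6 after a further quantile normalization, 7 with cyclic loess or array weights, and 4 to 6 when single arrays were left out. Zfp36l2 came to pass at -1.25 after quantile normalization, -1.37 with cyclic loess and -1.62 with array weights, and ranged from -1.98 to -1.23 over the left-out arrays, passing only without cultured replicate 1. Tob2 came to pass at -0.75 with cyclic loess and -0.68 with array weights. Tob1 ranged from -1.77 to -1.34 over the left-out arrays. The cause was not tested. Over all genes, 861 passed, against 1511 after quantile normalization, 1492 with cyclic loess, 1742 with array weights and 448 to 1517 when single arrays were left out, with 1517 without cultured replicate 1, 448 without cultured replicate 3, 478 without fresh replicate 2 and 471 without fresh replicate 3. The share of these calls that were higher in cultured cells was 22.1% as deposited and 38.8% after quantile normalization, 33.6% with array weights, and 10.8% without fresh replicate 3. The replicate block gave 662 genes and the same 5 members, with Zfp36l2 at an adjusted p of 0.141; Tob2 was at an adjusted p of 0.0874; no cultured array correlated best with the fresh array of its own number. Centring, the other prior, the filter and the probe set rule changed no call of the 7 genes. The within-array differences of the 5 pairs kept their direction under both rescalings and all 6 left-out arrays. Leaving out an array could not reverse them, because cultured and fresh arrays did not overlap in any pair. Signal near background limits the fold changes of Zfp36 and Zfp36l1.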

Other observations

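Of 13 measured proliferation genes 5 rose in the cultured cells, none fell and 8 did not pass, with a median log2 fold change of 1.23. The list was chosen with earlier results known. The ribonucleotide reductase subunit Rrm2 rose by 2.79, the survivin gene Birc5 by 2.42, the mitotic kinase gene Cdk1 by 2.12 and the cyclin gene Ccna2 by 1.93 on the log2 scale. The count of higher genes ranged from 2 to 9: it was 9 after quantile normalization, with cyclic loess or without cultured replicate 2 and 8 without cultured replicate 1, but 3 without cultured replicate 3 and 2 without any 1 of the fresh arrays. The replication genes Mcm2 and Mcm5, named after their values were seen, did not pass, at 0.51 (adjusted p = 0.319) and 0.62 (adjusted p = 0.0815), although Mcm5 passed after both rescalings. Pcna, at -1.10 (adjusted p = 0.22), fell without cultured replicate 1, at -1.65. Rrm2 and Ccna2 passed in all 6 fits that left out an array. The mean level of the list was 5.91, 4.72 and 5.12 on cultured replicates 1, 2 and 3, against 3.91, 4.04 and 4.07 on the fresh arrays. Btg2 was at 4.32, 3.71 and 3.82 on the same cultured arrays.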
